A study of Arabidopsis thaliana with 48 samples.

Results

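The genes described here encode proteins of the large (60S) subunit of the cytosolic ribosome of Arabidopsis thaliana. They were chosen by locus from a list of 60 genes, and 41 of the 60 had a probe set of their own on the ATH1 array and were measured. For 16 of the others no probe set was listed in the annotation used, and 3 were named only in probe sets of several genes. The 41 belong to 22 of the 27 protein families on the list, and 12 families had more than 1 measured gene. The whole table named 13355 genes with a probe set of their own. Family names such as L13a are the standard names of ribosomal protein families and serve as background, since the annotation tables used give loci for all measured genes but PGY1.

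Aerial tissue of Landsberg erecta seedlings aged 10 days was collected 2 h after a dip of 1 min. The 4 groups were gcn2 mutant seedlings dipped in the herbicide chlorsulfuron, gcn2 seedlings dipped in solvent (mock), wild-type seedlings dipped in herbicide and wild-type seedlings dipped in solvent. The labels name no gcn2 allele, and they give the herbicide both as 0.5 mM and as a 5 mM stock diluted 10000-fold, which is 0.5 µM. Each group had 3 arrays of total RNA and 3 sucrose gradients, and every gradient gave 3 arrays (non-polysomal RNA, small polysomes, large polysomes), 48 arrays in all. The comparisons ask whether the mRNAs of these proteins change in amount or in polysome association when the herbicide is given, and whether GCN2 matters for that.

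Ribosomal proteins are made in the cytosol and carried to the nucleolus, where they are built with ribosomal RNA into the 60S and 40S subunits. Plants encode each protein by a small family of paralogous genes. In the 60S subunit, P0, P1 and L12 belong to the stalk that binds elongation factors, L10a forms the stalk at the opposite side, and, in yeast, L4 and L17 line the tunnel through which the new peptide leaves, with L35 at its exit. An mRNA bound by several ribosomes sediments with polysomes, whereas an mRNA that is not being translated stays in the non-polysomal fractions at the top of a gradient. GCN2 is a kinase that phosphorylates the initiation factor eIF2α when amino acids are short, and chlorsulfuron blocks acetolactate synthase, an enzyme of branched-chain amino acid synthesis.

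Values are log2 array signals, differences are in log2 units ± standard error (SE), with n = 3 in each group except where replicates are left out. A gene is called higher or lower where the adjusted p of limma, corrected by the Benjamini-Hochberg method over 22746 probe sets, was under 0.05. Shares of all 22746 probe sets that met the same rule are given as background. They are not given for fits with 1 replicate left out, array weights, quantile normalization or loading from small polysomes. Counts from those fits are therefore not set against all probe sets. Array medians lay between 6.145 and 6.311, except in wild-type mock large polysomes of replicate 1 at 5.668. In the wild type, both gradients numbered 3 went against their labels. Over 2623 probe sets called for the herbicide in gcn2 total RNA, with the 41 genes left out, the mean herbicide minus mock difference in the direction of that call was 0.306 and 0.307 in wild-type non-polysomal RNA of replicates 1 and 2 but −0.300 in replicate 3. In wild-type small polysomes it was 0.440, 0.432 and −0.387, and in wild-type large polysomes 0.445, 0.429 and −0.295. In wild-type total RNA it lay between 0.415 and 0.429. In every gcn2 RNA type it lay between 0.727 and 0.948, where the total RNA values are positive by the choice of probe sets. For gradient comparisons that involve the wild type, medians and counts of called genes are therefore also given without replicate 3 of both wild-type groups, while values of single genes are with all arrays unless stated. RCA, a marker of green tissue, was at 12.96 to 13.45 in total RNA. Of 5 measured root markers, AT5G17820 and EXPA7 lay below the array's lower quartile in 12 of 12 total RNA arrays and EXPA18 in 10, while PYK10 was at 9.98 to 10.99 and AT5G66390 at 4.80 to 5.79. All arrays show relative levels, so a change shared by all RNAs is not seen, and fewer cells of a type cannot be told apart from less RNA per cell.

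**Figure D1:**
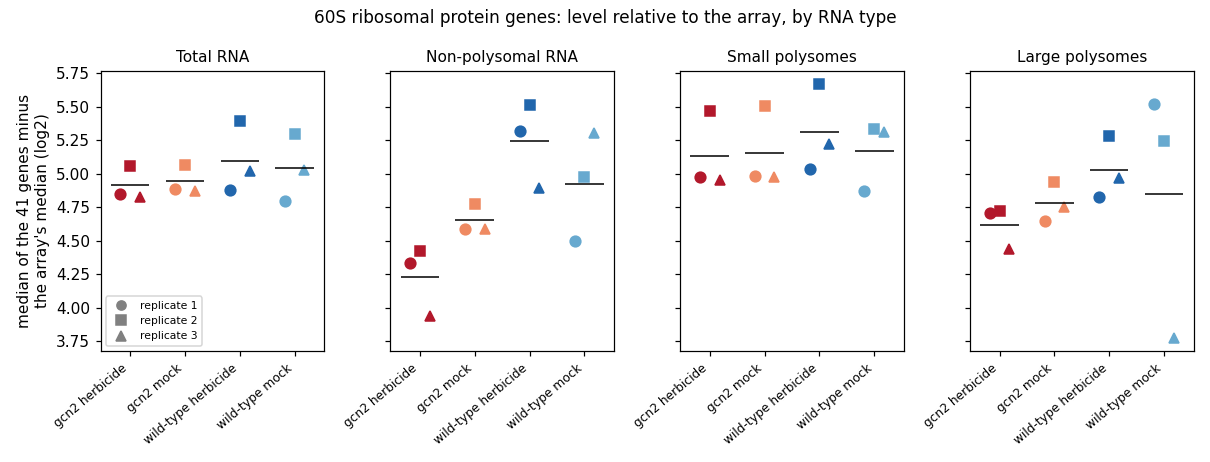
Median log2 value of the 41 genes minus the median of all probe sets on the same array, by RNA type, for each of the 3 replicates (symbols) and the mean of 3 (line). Non-polysomal RNA of herbicide-treated gcn2 lies lowest in its panel, and replicate 3 of wild-type mock lies far below its group in the large polysome panel.

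The clearest difference lay in non-polysomal RNA after the herbicide. Of the 41 genes, 28 were lower in gcn2 than in wild type and 0 were higher, against 4.2% of all probe sets lower and 3.37% higher (7.57% in either direction). The median difference over the 41 genes was −0.79, against 0.04 over all probe sets, and 38 of 41 differences were negative. In 33 of 41 genes all 3 gcn2 arrays lay below all 3 wild-type arrays, against 12.3% of all probe sets, and in 1 above, against 13.2%. Without replicate 3 of the wild type, 32 genes were lower (background 5.61%) and the median difference was −0.94. The count was 8 when replicate 2 of wild-type herbicide was left out, 13 without replicate 2 of gcn2 herbicide, 14 without replicate 1 of gcn2 herbicide and 16 without replicate 1 of wild-type herbicide. Shares of all probe sets are not given for these fits. Whether the smaller counts are particular to the 41 genes was not tested. The comparison of non-polysomal RNA was added after the data had been seen. Since 35 of the 41 genes lay above the upper quartile of probe sets by mean signal, bright probe sets give a second background: 11.3% of them were lower in gcn2 and their median difference was −0.08.

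The L13a family led this difference with 4 of 4 measured genes lower. AT3G24830 (L13a) had 9.53, 9.41 and 9.55 in herbicide-treated gcn2, against 11.18, 11.54 and 10.87 in herbicide-treated wild type. The difference of −1.70 ± 0.19 is 3.25-fold (adjusted p = 0.000104). AT3G07110 (L13a) had 10.04, 10.04 and 9.92 in gcn2, against 11.57, 11.85 and 11.38 in wild type, a difference of −1.60 ± 0.20 (adjusted p = 0.000296). For both genes every gcn2 array was below every wild-type array by over 1 log2 unit, whereas the other 2 genes of the family differed by −0.96 ± 0.20 (AT4G13170, adjusted p = 0.00823) and −1.59 ± 0.35 (AT5G48760, adjusted p = 0.0119).

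Both L15 genes were lower as well. L15 is a 60S protein that lies among the ribosomal RNA. AT4G16720 (L15) had 8.22, 8.69 and 8.66 in herbicide-treated gcn2, against 10.23, 10.45 and 9.63 in herbicide-treated wild type, a difference of −1.58 ± 0.25 (adjusted p = 0.00168). AT4G17390, its paralogue, differed by −0.90 ± 0.19 (adjusted p = 0.0103). The groups did not overlap for either gene, although the wild-type array of replicate 3 was the lowest of its group in both.

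In the stalks, all 3 measured L12 genes, all 3 L10a genes and 2 of 3 P0 genes were lower. AT5G60670 (L12) had 11.37, 11.80 and 11.66 in herbicide-treated gcn2, against 12.68, 12.90 and 12.44 in wild type, a difference of −1.06 ± 0.21 (adjusted p = 0.00647). PGY1 (L10a), a gene whose mutants alter leaf shape and polarity, had 11.33, 11.79 and 11.67 in gcn2, against 12.61, 12.80 and 12.52 in wild type, a difference of −1.05 ± 0.18 (adjusted p = 0.00276). In both, each gcn2 array was below each wild-type array. The third P0 gene, AT3G11250, differed by 0.36 ± 0.21 with an adjusted p of 0.358, and the P1 gene AT1G01100 did not pass.

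Among the other families, L14 and L17 were lower in 2 of 2 genes, L7 in 3 of 4, and L4, L7a and L22 in 1 of 2. AT4G27090 (L14) had 11.15, 11.43 and 11.55 in gcn2, against 12.30, 12.38 and 12.58 in wild type, a difference of −1.04 ± 0.18 (adjusted p = 0.00246). AT2G01250 (L7) differed by −1.13 ± 0.21, AT2G20450 (L14) by −1.11 ± 0.23 and AT3G13580 (L7) by −1.03 ± 0.22, with adjusted p of 0.00464, 0.00893 and 0.0099. Of the 12 families with several measured genes, 6 had every gene lower, 5 had some and 1, L19, had none. Of the 10 families with a single measured gene, L6, L9, L13 and L18 were lower, and L8, L18a, L27, L35, L37 and P1 were not called. The L8 gene AT3G51190 was below the lower quartile of every one of the 48 arrays, so its differences are uncertain in size. Of the 28 calls, 8 held under every alternative run: AT3G24830, AT3G07110, AT4G13170, AT4G16720, AT4G27090, PGY1, AT2G01250 and AT5G60670.

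**Figure D2:**
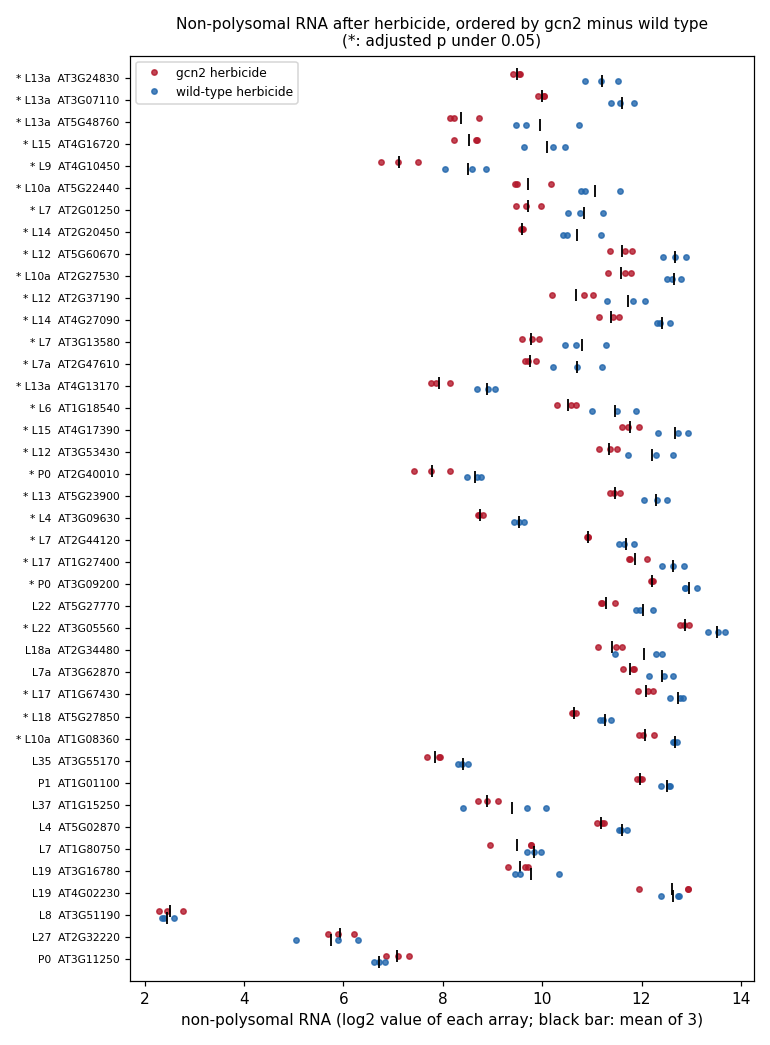
Log2 value in non-polysomal RNA of each of the 3 herbicide-treated gcn2 arrays (red, upper) and the 3 herbicide-treated wild-type arrays (blue, lower) for the 41 genes, ordered by the difference of the group means (black bars), with a star where the adjusted p was under 0.05. The 2 colours are apart for the genes in the upper part and overlap for the last ones, and 28 genes carry a star.

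Within gcn2, 6 genes were lower in non-polysomal RNA after herbicide than after mock and 0 were higher, against 1.63% of all probe sets lower and 3.99% higher (5.62% in either direction). AT3G24830 fell by 1.05 ± 0.19, with 9.53, 9.41 and 9.55 after herbicide, against 10.56, 10.53 and 10.54 after mock (adjusted p = 0.00288). AT3G07110 fell by 1.00 ± 0.20 (adjusted p = 0.00614). The other 4 genes were AT4G27090 at −0.73, AT4G13170 at −0.72, PGY1 at −0.69 and the P0 gene AT3G09200 at −0.66, with adjusted p between 0.0216 and 0.0442. The median over the 41 genes was −0.37 and 34 differences were negative. In 21 genes the herbicide arrays lay below all mock arrays, against 12.6% of all probe sets, and in 3 above, against 11.6%. AT3G24830 and AT3G07110 kept their calls under every alternative run, and the count was 2 without replicate 1 or 2 of gcn2 herbicide or replicate 2 of gcn2 mock, 3 without replicate 1 or 3 of gcn2 mock and 4 without replicate 3 of gcn2 herbicide. The L15 gene AT4G16720 missed the threshold at −0.84 ± 0.25 (adjusted p = 0.0638). The median difference between arrays of the same replicate number was −0.27, −0.38 and −0.32. Among the genes not called, AT2G32220 (L27) at 0.69 ± 0.28 and AT3G11250 (P0) at 0.56 ± 0.21 had positive differences, with adjusted p of 0.195 and 0.159.

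Within the wild type the values in non-polysomal RNA depended on replicate 3. No gene was called (0% of all probe sets, and 0 genes with an unadjusted p under 0.05 against 1.78% of all probe sets), but 38 of 41 differences between herbicide and mock were positive, with a median of 0.20. In 0 genes did the herbicide and mock arrays stand apart, against 2.13% of all probe sets upwards and 3.23% downwards. The median difference by replicate number was 0.47, 0.43 and −0.30, so replicates 1 and 2 were positive and replicate 3 negative. Without replicate 3 the median was 0.47, in 32 genes the herbicide arrays lay above all mock arrays (background 22.3%) and in 1 below (background 30.1%), and 2 genes were called higher (background 1.62%), AT1G15250 (L37) by 1.30 ± 0.25 and AT4G10450 (L9) by 1.26 ± 0.25, with adjusted p of 0.0204 and 0.0244. With all replicates AT4G10450 differed by 0.59 ± 0.32 and AT1G15250 by 0.53 ± 0.35, and at the other end AT2G40010 (P0) by −0.08 ± 0.20 and AT3G09200 (P0) by −0.06 ± 0.17, each with an adjusted p of 0.998.

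The test of the difference between the genotypes' responses called AT3G24830 at −1.33 ± 0.27 (adjusted p = 0.0248) and AT3G07110 at −1.23 ± 0.28 (adjusted p = 0.0499), against 0.106% of all probe sets in this direction, 0.95% in the other and 1.06% in either. Neither call held under every alternative run: the count was 0 without replicate 1 or 2 of gcn2 herbicide, gcn2 mock or wild-type herbicide or without replicate 1 of wild-type mock, and 1 without replicate 3 of gcn2 herbicide, gcn2 mock or wild-type herbicide or without replicate 2 of wild-type mock. The median over the 41 genes was −0.54. Leaving out replicate 3 of the wild type gave a median of −0.84 and 3 genes called lower (1.12% of all probe sets in either direction), AT4G10450 (L9) at −1.82 ± 0.33, AT3G24830 at −1.58 ± 0.27 and AT3G07110 at −1.50 ± 0.28, with adjusted p of 0.0202, 0.0162 and 0.0257. The largest positive values, AT2G32220 at 0.68 ± 0.40 and AT3G11250 at 0.36 ± 0.30, did not pass. After mock, limma called 0 genes between the genotypes in non-polysomal RNA, against 0.044% of all probe sets higher and 0.0308% lower (0.0747% in either direction), and 4 genes had an unadjusted p under 0.05 (background 5.2%). The count was also 0 when replicate 3 of the wild type was left out (background 0.0528%). In 10 genes the gcn2 arrays lay below all wild-type arrays (background 5.06%) and in 0 above (background 4.54%). There, 38 of 41 differences were negative, with a median of −0.30, and −0.16 without replicate 3 of the wild type. AT4G16720 at −0.58 ± 0.25 and AT3G09630 (L4) at −0.53 ± 0.20 were the lowest, and AT3G51190 at 0.15 ± 0.18 and AT3G55170 (L35) at 0.12 ± 0.20 the highest.

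Total RNA changed in few of these genes. In gcn2, herbicide against mock gave 1 higher and 2 lower of 41, against 6.67% of all probe sets higher and 4.87% lower (11.5% in either direction), and the median difference was −0.01. AT4G16720 (L15) had 9.24, 9.45 and 9.30 after herbicide, against 10.03, 10.12 and 9.85 after mock, and fell by 0.67 ± 0.14 (adjusted p = 0.00434). AT4G13170 (L13a) had 8.27, 8.28 and 8.35 after herbicide, against 9.03, 8.96 and 8.66 after mock, and fell by 0.58 ± 0.13 (adjusted p = 0.0092). AT2G32220 (L27) rose, with 4.99, 5.33 and 5.56 after herbicide, against 4.76, 4.77 and 4.84 after mock, a difference of 0.50 ± 0.15 (adjusted p = 0.0381). The groups were apart in all 3 genes, but AT2G32220 was called in only 1 of the 6 fits that left out a replicate, that without replicate 1 of gcn2 herbicide. Next in size was AT5G48760 (L13a) at −0.50 ± 0.23. Samples of the same replicate number deviated together in total RNA, and with the replicate number as a block 5 genes were called (background 21.7%), these 3 and the L13a genes AT5G48760 and AT3G24830, both lower.

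In wild-type total RNA 1 gene rose and 1 fell, against 4.05% of all probe sets higher and 2.68% lower (6.73% in either direction), with a median of 0.09. AT1G15250 (L37) had 8.72, 8.94 and 8.32 after herbicide, against 7.96, 8.05 and 7.88 after mock, and rose by 0.70 ± 0.15 (adjusted p = 0.00952). AT3G55170 (L35) had 6.83, 6.77 and 6.81 after herbicide, against 7.42, 7.21 and 7.27 after mock, and fell by 0.50 ± 0.11 (adjusted p = 0.015). In both genes the groups did not overlap, but the count was 0 without replicate 2 of wild-type herbicide and 1 without replicate 1 of wild-type mock. AT4G10450 (L9) at 0.53 ± 0.19 and AT4G13170 (L13a) at −0.34 ± 0.13 came next and did not pass.

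In total RNA the interaction test without a replicate block called 0 genes (1.53% of all probe sets called). Of the 41 genes, 4 had an unadjusted p under 0.05, against 11.8% of all probe sets. The median was −0.17 and 31 of 41 values were negative, but the median was −0.03 without replicate 1 of wild-type mock, −0.08 without replicate 2 of wild-type herbicide and −0.27 without replicate 2 of wild-type mock. AT5G48760 (L13a) at −0.80 ± 0.33 and AT5G22440 (L10a) at −0.55 ± 0.34 were the lowest, and AT2G32220 at 0.49 ± 0.21 and AT1G80750 (L7) at 0.43 ± 0.27 the highest. With the replicate block AT5G48760 was called (−0.80 ± 0.19, adjusted p = 0.0258; background 4.62%).

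After herbicide, 2 genes were lower in gcn2 than in wild type in total RNA and 0 were higher, against 1.42% of all probe sets lower and 3.07% higher (4.49% in either direction). AT4G16720 had 9.24, 9.45 and 9.30 in gcn2, against 9.87, 10.24 and 9.85 in wild type, a difference of −0.66 ± 0.14 (adjusted p = 0.0102). AT3G24830 had 10.32, 10.53 and 10.36 in gcn2, against 10.83, 11.13 and 10.85 in wild type, a difference of −0.54 ± 0.14 (adjusted p = 0.0455). The gcn2 and wild-type arrays were apart in both genes, and in 13 of the 41 all gcn2 arrays lay below all wild-type arrays (background 11.6%). Over the 41 genes the median was −0.20, against −0.03 over all probe sets, and 37 differences were negative. AT5G48760 at −0.70 ± 0.23, AT2G32220 at 0.18 ± 0.15 and AT1G80750 at 0.11 ± 0.19 did not pass. With the replicate block, 8 genes were lower (background 11.3% in either direction): AT4G16720, AT5G48760, AT3G24830, AT5G22440, AT4G17390, AT3G07110, AT2G40010 and AT1G15250, at −0.38 to −0.70. Without a block, the count was 0 without replicate 1 of gcn2 herbicide or replicate 2 of wild-type herbicide, and 1 without replicate 2 or 3 of gcn2 herbicide or replicate 1 of wild-type herbicide. After mock, limma called 0 genes, against 0.0703% of all probe sets higher and 0.0659% lower (0.136% in either direction), 3 had an unadjusted p under 0.05 (background 7.24%), and the median was −0.07. Groups that did not overlap made up 5.04% of all probe sets upwards and 6.14% downwards in this comparison. AT3G55170 at −0.47 ± 0.11 and AT1G80750 at −0.32 ± 0.19 were lowest, and AT3G53430 (L12) at 0.17 ± 0.16 and AT5G22440 at 0.11 ± 0.24 highest. With the block AT3G55170 was called (adjusted p = 0.047, background 0.717%).

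For the same contrast of gcn2 with wild type after herbicide, the non-polysomal difference was below the total RNA difference in 38 of 41 genes and below the polysomal one in 37. The 28 genes that were lower in non-polysomal RNA had median differences of −0.96 in non-polysomal RNA, −0.22 in total RNA and −0.24 in polysomal RNA. These medians describe genes picked for the first value.

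**Figure D3:**
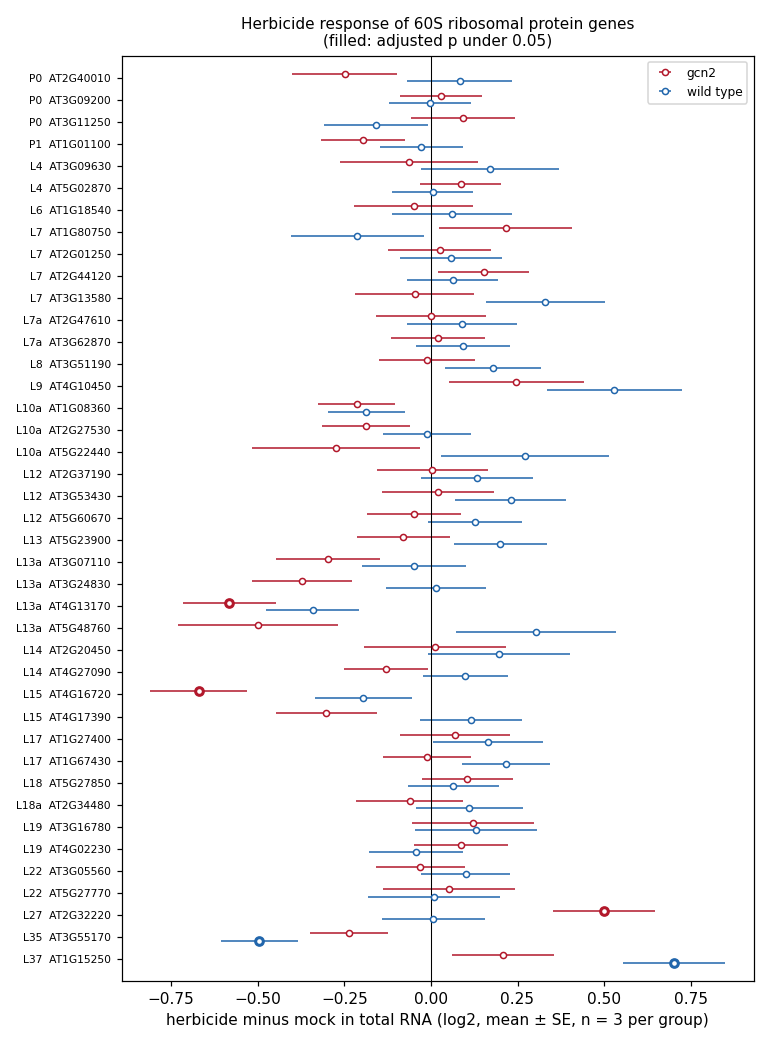
Herbicide minus mock difference in total RNA (log2, mean with SE, n = 3 per group) of the 41 genes in gcn2 (red, upper) and wild type (blue, lower), with filled points where the adjusted p was under 0.05. Most points lie within 0.5 of 0, and 3 points in gcn2 and 2 in wild type are filled.

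Paralogues of one family had the following values in total RNA. In L13a, the herbicide difference in gcn2 was −0.58 ± 0.13 for AT4G13170, −0.50 ± 0.23 for AT5G48760, −0.37 ± 0.14 for AT3G24830 and −0.30 ± 0.15 for AT3G07110, so the first passed and the other 3 had the same sign without passing. With the replicate block AT4G13170, AT5G48760 and AT3G24830 passed (adjusted p of 0.00298, 0.0156 and 0.0294) and AT3G07110 had 0.0543. In wild type the same 4 genes had −0.34 ± 0.13, 0.30 ± 0.23, 0.01 ± 0.14 and −0.05 ± 0.15. In L15, AT4G16720 fell in gcn2 while AT4G17390 had −0.30 ± 0.15 (adjusted p = 0.215), and in wild type they had −0.20 ± 0.14 and 0.12 ± 0.15. The differences between paralogues were not tested. L27, L35 and L37 had 1 measured gene each.

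Polysomal RNA was taken as the average of both polysome arrays of a gradient, and 1 gene passed the test. AT4G16720 (L15) was lower after herbicide than after mock in gcn2, at −0.71 ± 0.17 (adjusted p = 0.0296; background 0.932% lower and 3.84% higher). In small polysomes it had 9.22, 9.41 and 9.05 after herbicide, against 9.69, 10.23 and 9.81 after mock, and in large polysomes 8.98, 9.24 and 9.16 after herbicide, against 9.78, 10.00 and 9.79 after mock. The herbicide arrays were below all mock arrays in both fractions. It was also lower in herbicide-treated gcn2 than in herbicide-treated wild type, at −0.87 ± 0.17 (adjusted p = 0.0151; background 0.321% lower). The wild-type values were 10.12, 10.34 and 10.11 in small polysomes and 9.75, 9.93 and 10.02 in large polysomes, all above those of gcn2. The first call was lost without any 1 of the 3 replicates of gcn2 herbicide or without replicate 1 or 2 of gcn2 mock, and the second without replicate 1 or 3 of gcn2 herbicide or replicate 2 or 3 of wild-type herbicide.

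Within gcn2 the median was −0.07, and AT5G48760 at −0.59 ± 0.41, AT2G32220 at 0.41 ± 0.34 and AT4G10450 at 0.31 ± 0.21 did not pass. The other 3 comparisons of polysomal RNA called 0 of the 41 genes. For gcn2 against wild type after herbicide the median was −0.18 and 39 of 41 differences were negative, and 12 genes had groups apart in that direction (background 11.5%). Bright probe sets had a median of −0.10 in this comparison, and 67.3% of them were negative. Without replicate 3 of the wild type the median of the 41 genes was −0.21 and 36 differences were negative. Then 18 genes had groups apart in that direction (background 15.1%) and AT4G16720 was called (background 1.81% in either direction). AT5G22440 at −0.69 ± 0.31 came after AT4G16720 in size, and AT2G32220 at 0.47 ± 0.34 and AT3G11250 at 0.09 ± 0.22 were highest. Herbicide against mock in wild type had a median of 0.21 with 37 positive differences (0% of probe sets called, 0 genes with an unadjusted p under 0.05 against 3.84% of all probe sets). Bright probe sets had a median of 0.12 in this comparison, and 76.2% of them were positive. Without replicate 3 the median of the 41 genes was 0.03, with 26 positive differences and 0 genes called (background 0.901%). With all replicates AT1G01100 (P1) had 0.65 ± 0.40 and AT2G47610 (L7a) 0.44 ± 0.27, and AT3G55170 −0.13 ± 0.22. The interaction had a median of −0.32 (background 0.409%, 6 genes with an unadjusted p under 0.05 against 8.41% of all probe sets), beside −0.19 over bright probe sets, of which 74.5% were negative. The median of the 41 genes ran from −0.50 without replicate 2 of wild-type mock to −0.12 without replicate 3 of wild-type mock. It was −0.13 without replicate 3 of both wild-type groups, with 30 negative values, against −0.10 over all probe sets, and 0 genes were called (background 0.444%). With all arrays, single values had AT5G48760 at −1.0 ± 0.58 and AT5G22440 at −0.90 ± 0.44 as the lowest and AT2G32220 at 0.42 ± 0.48 as the highest. After mock, gcn2 minus wild type had a median of 0.06 with 29 positive differences (background 0.0659%, 0 genes with an unadjusted p under 0.05 against 4.94% of all probe sets). Bright probe sets had a median of 0.08 there, and 68.9% of them were positive. With replicate 3 of the wild type left out the median of the 41 genes was −0.08, 33 differences were negative and 0 genes were called (background 0.0615%). With all arrays the extremes were AT1G01100 at 0.51 ± 0.40 and AT1G15250 at −0.22 ± 0.20.

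Polysome loading was the polysomal value less the non-polysomal one within a gradient. After herbicide, 37 of 41 differences between gcn2 and wild type were positive, with a median of 0.60, against −0.05 over all probe sets. limma called 0 of them (0.141% of all probe sets called), 22 had an unadjusted p under 0.05 (background 12.2%), and 28 had all gcn2 gradients above all wild-type gradients (background 10.1%). The highest were AT4G10450 (L9) at 1.35 ± 0.33 and AT3G07110 (L13a) at 1.05 ± 0.28, with adjusted p of 0.0897 and 0.125, and the lowest AT3G11250 (P0) at −0.27 ± 0.28 and AT3G51190 (L8) at −0.16 ± 0.20. Without replicate 3 of the wild type 17 genes were called higher (background 2.59%) and the median was 0.71. Those with the smallest adjusted p were AT3G24830 at 1.28 ± 0.21, AT5G60670 at 1.16 ± 0.20 and AT3G07110 at 1.18 ± 0.20, with 0.00665, 0.00672 and 0.00672.

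Herbicide against mock in gcn2 had a median loading difference of 0.27, with 0 genes called (background 0.0484%). Of the 41 genes, 4 had an unadjusted p under 0.05, against 8.06% of all probe sets. In 19 genes the groups were apart upwards (background 7.92%) and in 1 downwards (background 8.61%). AT4G10450 had 0.87 ± 0.33, AT4G27090 (L14) 0.71 ± 0.22, AT3G16780 (L19) −0.34 ± 0.32 and AT3G11250 −0.31 ± 0.28. In wild type the median was −0.02 with 0 called (0% of probe sets, 1 gene with an unadjusted p under 0.05 against 5.22% of all probe sets). Without replicate 3 it was −0.43 and 0 genes were called (background 0.0044%). In that setting 29 genes had groups apart downwards (background 18%) and 2 upwards (background 36%). AT2G40010 (P0) at 0.46 ± 0.26 and AT1G01100 (P1) at 0.44 ± 0.46 were highest there with all replicates, and AT4G10450 at −0.40 ± 0.33 and AT1G15250 at −0.34 ± 0.29 lowest. The interaction called 0 genes (0% of probe sets, 2 with an unadjusted p under 0.05 against 6.24% of all probe sets), with a median of 0.24, and without replicate 3 of the wild type 0 genes (background 0.0044%), with a median of 0.71. AT4G10450 at 1.26 ± 0.47 and AT4G27090 at 0.88 ± 0.31 were highest, and AT4G02230 (L19) at −0.55 ± 0.36 and AT3G16780 at −0.49 ± 0.46 lowest. After mock, gcn2 minus wild type had a median of 0.37 with 39 positive differences, and of 0.04 with 24 positive without replicate 3 of the wild type, and 0 genes were called (background 0.00879%, 2 with an unadjusted p under 0.05 against 7.14% of all probe sets), nor were any without that replicate (background 0.0176%). AT5G48760 at 0.83 ± 0.46 and AT1G01100 at 0.78 ± 0.46 were highest, and AT3G51190 at −0.15 ± 0.20 and AT3G55170 at −0.13 ± 0.27 lowest.

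The level of loading within a group was read against the median probe set of each gradient, set to 0. In herbicide-treated gcn2, 17 genes were called above 0 by the test and 1 below, against 13.8% and 12.8% of all probe sets. In gcn2 mock 8 were called above and 2 below (background 14.3% and 14.9%). In wild-type herbicide 4 were called above and 5 below (background 15.1% and 14.6%). In wild-type mock 5 were called above and 3 below (background 12.2% and 16.9%). The median over the 41 genes was 0.42, 0.50 and 0.41 in the 3 gcn2 herbicide gradients, 0.06, 0.21 and 0.09 in gcn2 mock, −0.37, −0.28 and −0.02 in wild-type herbicide, and 0.23, 0.21 and −0.87 in wild-type mock. The gcn2 herbicide gradients were thus above the other 9, and the wild-type mock gradient of replicate 3 was below all others. Left out 1 at a time, replicates 1 and 2 of gcn2 herbicide gave 10 and 11 called genes instead of 18, and replicate 2 of gcn2 mock gave 6 instead of 10. When replicate 3 of the wild type was left out, 5 genes were called above and 11 below 0 in wild-type herbicide (29.2% of all probe sets in either direction). The median there was −0.31. In wild-type mock 8 were then called above and 2 below (29.7% in either direction), with a median of 0.21. With array weights, 5 were called above and 22 below in wild-type herbicide. Shares of all probe sets are not given for that fit or for those with 1 replicate left out. Whether these counts are particular to the 41 genes was not tested.

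The 5 most loaded genes by the mean over the 4 groups were AT3G11250 (P0) at 1.02, AT2G47610 (L7a) at 0.96, AT3G09630 (L4) at 0.89, AT5G02870 (L4) at 0.82 and AT1G18540 (L6) at 0.70. The 5 least loaded were AT2G40010 (P0) at −1.91, AT1G15250 (L37) at −0.48, AT3G55170 (L35) at −0.43, AT5G60670 (L12) at −0.34 and AT3G09200 (P0) at −0.31. The same genes stood at both ends, in the same order, without replicate 3 of the wild type. By the median over the 12 gradients AT2G47610 was highest at 1.17, ahead of AT3G11250 at 1.10, and AT4G27090 (L14) at −0.35 was among the lowest 5 in place of AT5G60670 at −0.22. Above 0 in all 4 groups by the test were AT3G11250, AT3G09630, AT5G02870 and AT1G80750, and below 0 in all 4 was AT2G40010.

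Genes of P0, the protein at the base of the stalk, stood at both ends of the order by mean. AT3G11250 had 1.18, 0.71 and 0.65 in gcn2 herbicide, 1.31, 0.94 and 1.15 in gcn2 mock, 0.93, 1.31 and 1.04 in wild-type herbicide and 1.28, 1.63 and 0.08 in wild-type mock. AT2G40010 had −1.20, −1.16 and −1.72 in gcn2 herbicide, −2.30, −1.81 and −1.23 in gcn2 mock, −2.01, −2.15 and −1.95 in wild-type herbicide and −2.82, −2.17 and −2.39 in wild-type mock. The ranges of the 2 genes did not overlap in any of the 12 gradients, from 0.08 to 1.63 against −2.82 to −1.16, and AT3G09200 ran from −1.08 to 0.34, overlapping the first and, with its lowest value of −1.08, staying above the second. Loading is a ratio within a probe set, and whether different probe sets report it on the same scale was not tested. The difference between paralogues was not tested either.

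**Figure D4:**
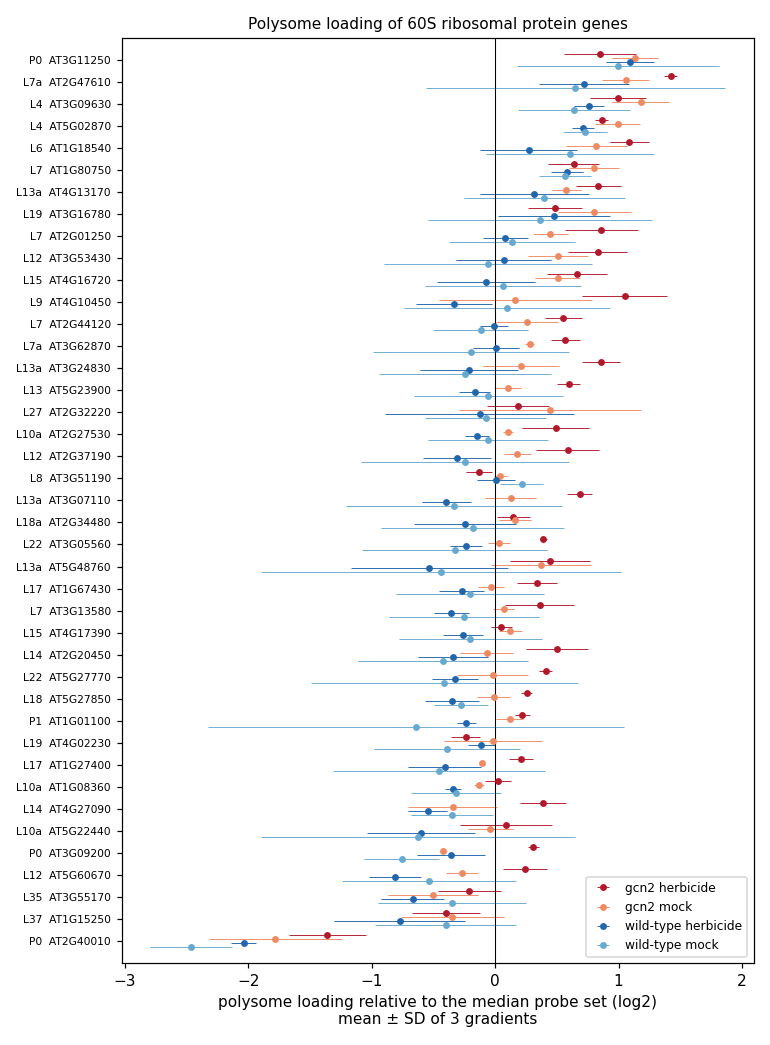
Polysome loading of the 41 genes relative to the median probe set of each gradient (log2, mean with SD of 3 gradients) in gcn2 herbicide, gcn2 mock, wild-type herbicide and wild-type mock, ordered by the mean over the 4 groups. P0 genes lie at the top (AT3G11250) and at the bottom (AT2G40010), and gcn2 herbicide lies to the right of wild-type herbicide for most genes.

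Within polysomes the group medians of these mRNAs lay toward the small ones. Large minus small polysomes, centred in the same way, was below 0 by the test in 10 genes and above in 2 in gcn2 herbicide (background 10.1% and 9.21%), in 10 and 2 in gcn2 mock (background 10.9% and 7.04%), in 6 and 1 in wild-type herbicide (background 9.74% and 9.66%) and in 14 and 0 in wild-type mock (background 14.6% and 8.02%). The group medians over the 41 genes were −0.38, −0.45, −0.27 and −0.49. In wild-type mock the 3 gradients had medians of 0.14, −0.23 and −1.44, so that group's values rest on gradients that were far apart, and 24 genes were called there without replicate 1. Without replicate 3 of the wild type, 12 genes were called below 0 and 0 above in wild-type herbicide (22.6% of all probe sets in either direction). The median there was −0.27. In wild-type mock 7 were then called below and 4 above (20.9% in either direction), with a median of −0.08. The counts fell to 5, 3 and 6 without replicate 1, 2 or 3 of gcn2 herbicide. They fell to 5 and 6 without replicate 1 or 2 of gcn2 mock. For wild-type herbicide they fell to 3, 4 and 4 without replicate 1, 2 or 3. Shares of all probe sets are not given for these fits or for the one with 24 called genes. Whether these counts are particular to the 41 genes was not tested.

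Lowest by the mean over the 4 groups were AT2G32220 (L27) at −1.56, AT3G55170 (L35) at −1.36, AT1G15250 (L37) at −1.28, AT2G20450 (L14) at −1.12 and AT5G48760 (L13a) at −1.09. AT2G32220 had −1.57, −2.16 and −1.36 in gcn2 herbicide, −1.72, −1.90 and −1.50 in gcn2 mock, −1.37, −1.14 and −1.69 in wild-type herbicide and −1.16, −1.46 and −1.63 in wild-type mock. All 12 gradients were below 0 for this gene, as they were for AT3G55170, AT1G15250 and AT2G20450. These 4 genes and AT5G27850 (L18) were below 0 by the test in all 4 groups. Highest were the L4 genes AT3G09630 at 0.54 and AT5G02870 at 0.47, followed by AT3G11250 (P0) at 0.14, AT3G09200 (P0) at 0.08 and AT2G44120 (L7) at 0.05. AT5G02870 had 0.55, 0.43 and 0.36 in gcn2 herbicide, 0.64, 0.48 and 0.62 in gcn2 mock, 0.22, 0.39 and 0.75 in wild-type herbicide and 0.46, 0.55 and 0.23 in wild-type mock. It was above 0 in 12 of 12 gradients and AT3G09630 in 11, and both L4 genes passed the test in both gcn2 groups.

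**Figure D5:**
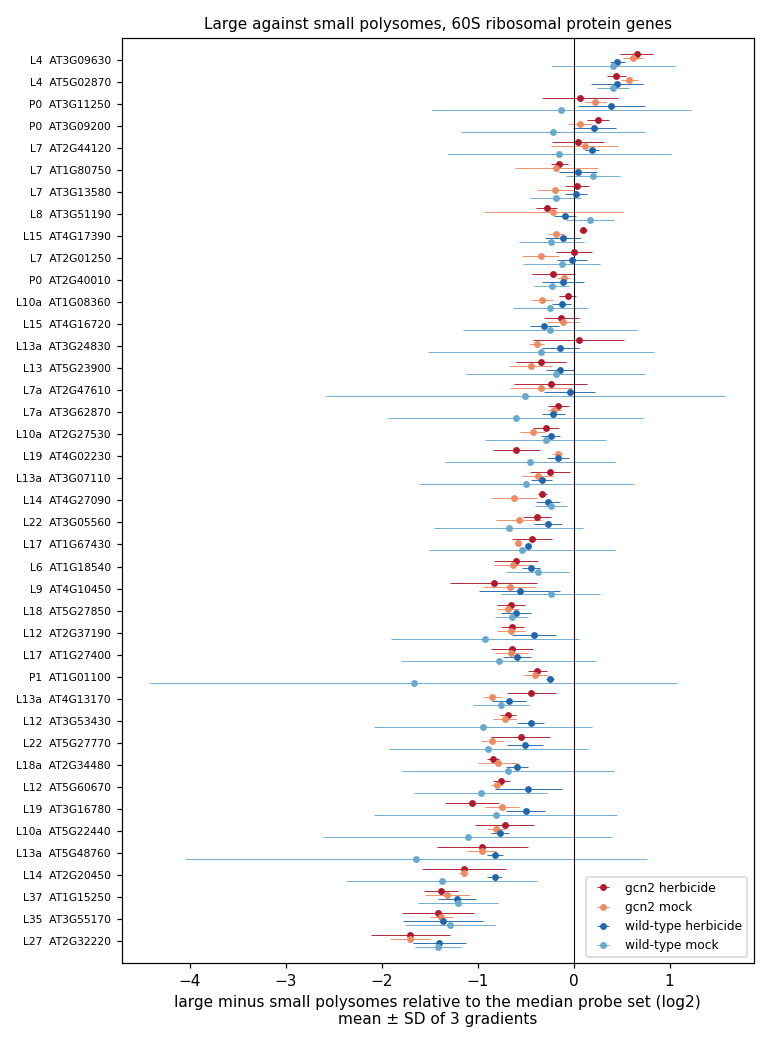
Large minus small polysome value of the 41 genes relative to the median probe set of each gradient (log2, mean with SD of 3 gradients), for the same 4 groups and ordered by the mean over them. The L4 genes lie above 0, L27, L35 and L37 lie lowest, and wild-type mock has the widest bars.

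Other gene lists put the non-polysomal difference between herbicide-treated gcn2 and wild type in context, described by counts and medians. Of 43 other genes of 60S proteins, 9 were lower and 0 higher, with a median of −0.33, and AT3G14600 at −1.24 ± 0.20 and AT4G15000 at −1.35 ± 0.26 had the smallest adjusted p. Of 48 genes of 40S proteins, 20 were lower and 0 higher, with a median of −0.52, led by AT5G15200 at −1.39 ± 0.19 and AT2G36160 at −1.37 ± 0.19. Nuclear genes of plastid 50S ribosomal proteins were lower in 7 of 7, with a median of −0.99, led by AT4G17560 at −1.79 ± 0.24 and AT2G43030 at −1.50 ± 0.23. Both measured genes of translation elongation factors, AT5G19510 at −1.11 ± 0.19 and AT5G12110 at −0.66 ± 0.17, were lower. Among 14 genes of 60S assembly and nucleolar factors, AT5G15550 was higher at 0.58 ± 0.16, AT1G25260 was lower at −0.69 ± 0.20, and the median was 0.07. In total RNA the same contrast had a median of −0.15 over the other 60S genes, −0.11 over the 40S genes and −0.21 over the plastid 50S genes. Toward small polysomes, the other 60S genes had medians of −0.64, −0.72, −0.55 and −0.81 and the 40S genes −0.59, −0.73, −0.44 and −0.60 in gcn2 herbicide, gcn2 mock, wild-type herbicide and wild-type mock, against −0.01, 0.00, −0.01 and 0.03 over all probe sets. Without replicate 3 of the wild type, the non-polysomal contrast had 14 of the other 60S genes lower with a median of −0.45, 23 of the 40S genes lower with −0.67, 6 of 7 plastid 50S genes lower with −1.26 and 1 of 2 elongation factor genes lower. Large minus small polysomes then had medians of −0.45 and −0.46 over the other 60S genes and −0.39 and −0.28 over the 40S genes in wild-type herbicide and wild-type mock.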

How the data were processed

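RNA was hybridised to Affymetrix ATH1 arrays (22810 probe sets, 48 arrays, 16 combinations of genotype, treatment and RNA type with 3 replicates each). The deposited values are log2 signals; the submitters' processing notes name MAS5, affy and RMA without roles. Versions, and whether 1 normalization covered the 48 arrays, were not given in the sources used here. After 64 control probe sets were left out, 22746 were tested with limma 3.58.1 (lmFit, eBayes; R 4.3.3) on the 4 group means, Benjamini-Hochberg adjustment over all of them and a threshold of 0.05, after a check on simulated data. Polysomal RNA was the mean of small and large polysomes of a gradient, and loading that mean minus the non-polysomal value. Levels of loading and of large minus small polysomes were centred on the median of each of 12 gradients and tested against 0.

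Gene names came from the platform's probe table and RefSeq TAIR10.1, through which 13436 of 13513 probe sets with 1 gene matched. Of the rest, 503 had several genes and 8730 were unnamed here. GCN2 itself was not analysed here. Families were assigned by hand from standard nomenclature. The members and gene lists were chosen with earlier results of these data known. Named genes were, per comparison, those past the threshold, up to 10 per direction by smallest adjusted p; where fewer than 4 passed, the largest differences were added as values; for levels, 5 genes at each end; from other lists, up to 2 per direction.

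Nothing in the labels ties replicates to separate cultures; p-values then reflect the spread among these arrays alone, possibly technical. Replicate numbers paired the samples in total RNA, where 18 of 18 pairs of same-numbered samples had a correlation of residuals over 0.1 (mean 0.37). In non-polysomal RNA 10 of 18, in polysomal RNA 15 of 18 and in loading 4 of 18 did. Alternatives were the replicate block, quantile normalization, arrays centred on their medians, array weights and dim probe sets left out. Others were loading from small or from large polysomes alone, and each replicate left out. Leaving out both wild-type gradients of replicate 3 was an alternative chosen after seeing the data. Arrays carry no counts, so their number limits the precision.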

Additional observations from a re-analysis of the deposited data

Results flagged for a closer look

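In total RNA, 3 genes moved in opposite directions in the genotypes, with herbicide below mock in every gcn2 pair of the same replicate number and above it in every wild-type pair, a pattern that 3.65% of all probe sets show. The interaction test did not call them. AT5G22440 (L10a) had an interaction of −0.55 ± 0.34 (gcn2 minus wild type, adjusted p = 0.605, and 0.0717 with the replicate block), with pair differences of −0.46 to −0.10 in gcn2 and 0.14 to 0.41 in wild type. AT4G17390 (L15) had −0.42 ± 0.21 (adjusted p = 0.455, and 0.128 with the block), with −0.36 to −0.26 in gcn2 and 0.04 to 0.20 in wild type. AT5G60670 (L12) had −0.18 ± 0.19 (adjusted p = 0.809, and 0.594 with the block), with −0.09 to −0.02 in gcn2 and 0.10 to 0.14 in wild type. No gene showed the opposite pattern, which 2.17% of all probe sets show. These p-values are from limma over all probe sets.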

How the results depend on the processing

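Of 652 alternative values for 56 counts and medians, 567 stayed within the limits set (a count within 1.5 times, a median within the spread between replicates) and 85 moved. No median counts as a call; of 28 medians, 6 changed sign under an alternative: total RNA within gcn2 (−0.06 to 0.03), within wild type (−0.01 to 0.17) and between genotypes after mock (−0.17 to 0.01), polysomal RNA between genotypes after mock (−0.08 to 0.23), loading within wild type (−0.43 to 0.16) and its level in wild-type mock (−0.39 to 0.21). With the replicate block, counts of called genes in total RNA were 5 instead of 3 (gcn2, herbicide against mock), 1 instead of 0 (interaction), 8 instead of 2 (gcn2 against wild type after herbicide) and 1 instead of 0 (after mock), and in wild type, herbicide against mock, the count stayed at 2. In the gradients, 10 (non-polysomal), 15 (polysomal) and 4 (loading) of 18 same-numbered pairs correlated over 0.1, so that pairing was not established. In polysomal RNA the mean correlation was 0.29, against −0.15 for other numbers. The block gave 1 instead of 2 for the non-polysomal interaction (background 1.09% in either direction). In polysomal RNA it gave 2 instead of 1 within gcn2 (background 7.41%) and 3 instead of 1 between genotypes after herbicide (background 3.29%). Quantile normalization gave 1 for the non-polysomal interaction and medians of 0.33 and 0.036 for the level of loading in gcn2 herbicide and gcn2 mock, and of −0.26 and −0.21 for large minus small polysomes in gcn2 mock and wild-type herbicide. Array weights gave 5 genes in total RNA (gcn2 against wild type after herbicide), 10 in non-polysomal RNA within gcn2, 5 in its interaction, 2 in polysomal RNA within gcn2, and for loading 1 within gcn2 and 27 between genotypes after herbicide, with an interaction median of 0.57. For the level of loading they gave 17 in gcn2 mock and 27 in wild-type herbicide. For large minus small polysomes, where the weights did not reach their tolerance, they gave 23, 29, 22 and 0 in gcn2 herbicide, gcn2 mock, wild-type herbicide and wild-type mock, and a median of −0.52 in gcn2 mock. Without replicate 3 of both wild-type groups, the counts were 2 (non-polysomal, within wild type), 17 (loading, between genotypes after herbicide), 16 (level of loading, wild-type herbicide) and 12 (large minus small polysomes, wild-type herbicide), and the medians −0.84 (non-polysomal interaction), −0.43 (loading within wild type) and 0.71 (loading interaction). Loading from small polysomes alone called 7 genes between genotypes after herbicide, while loading from large polysomes alone left the reported count unchanged. Without dim probe sets the median of large minus small polysomes in gcn2 mock was −0.51. Counts from array weights, quantile normalization and loading from small polysomes have no share of all probe sets beside them. They do not show a gain or loss particular to these genes. The cause of these shifts was not tested.

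With 1 replicate left out at a time, counts ran in total RNA from 2 to 3 within gcn2, 0 to 3 within wild type and 0 to 2 between genotypes after herbicide. In non-polysomal RNA they ran from 2 to 4 within gcn2, 0 to 2 for the interaction and 8 to 27 between genotypes after herbicide, and in polysomal RNA from 0 to 1 for both contrasts with a call. For the level of loading they ran from 10 to 14 in gcn2 herbicide, 6 to 9 in gcn2 mock, 6 to 8 in wild-type herbicide and 7 to 10 in wild-type mock. For large minus small polysomes they ran from 3 to 6, 5 to 8, 3 to 4 and 11 to 24 in the same order. The loading interaction median ran from 0.075 to 0.58, and that of large minus small polysomes in gcn2 mock from −0.53 to −0.42. Of 538 alternative values for single genes, 148 lost the call, 390 kept it and 0 reversed. Promoter motifs and protein lengths were planned as descriptions and were not run.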
